A study of Rattus norvegicus with 6 samples.

Results

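The genes of the rat major histocompatibility complex (MHC), which carry the prefix RT1 in the rat, and 8 genes that load, move or regulate their products were examined in nucleus pulposus cells, which fill the soft centre of an intervertebral disc. The members were every row whose symbol starts with RT1- (37 genes) and B2m, Tap1, Tap2, Tapbp, Erap1, Nlrc5, Cd74 and Ciita, so that 45 of the 22601 rows of each deposited file were members. The rule itself reads gene names and no values, but the group was picked for study with earlier results of these data known. All 45 symbols occurred in the RefSeq gene table of the GRCr8 rat assembly. They were divided into 33 genes of the class I pathway (27 RT1 heavy chain genes and 6 partners or regulators) and 12 genes of the class II pathway (10 RT1 chain genes, Cd74 and Ciita). RT1 genes were sorted by symbol alone. RT1-M10-1, counted here as a heavy chain gene, is a long noncoding RNA in RefSeq and was listed at 0 in all libraries.

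RNA was sequenced from 6 libraries of Sprague Dawley rat nucleus pulposus cells in 2 groups of 3. The strain group was under cyclic tensile strain for 24 h (Flexcell device, 0.2 Hz, elongation of 18%), and the control group is labelled as control. Since every library carries the same treatment text, the control group counts as unstretched by its class label alone, and no label says whether replicates were separate animals or cultures. The p-values below therefore measure only the spread between these libraries, which may be technical.

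MHC class I molecules stand on nearly all nucleated cells. Each consists of a heavy chain and the small invariant chain beta-2-microglobulin, and holds a peptide that the proteasome cut in the cytosol, the TAP1-TAP2 transporter carried into the endoplasmic reticulum and the peptidase ERAP1 trimmed there. Tapasin, the product of Tapbp, bridges the transporter and the empty heavy chain and helps to select the peptide. MHC class II molecules are pairs of alpha and beta chains that take up peptides in endosomes with the help of the invariant chain CD74 and the DM molecule, and are made mainly by dendritic cells, macrophages and B cells, or by other cells under interferon gamma. NLRC5 and CIITA are the transcriptional coactivators of the class I and the class II genes.

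The promoters of the 3 class I partners that the comparison turns on are shown first, since the class I pathway genes are known targets of NF-kB and of interferon regulatory factors. The sequences are RefSeq's, build GRCr8, from 250 bases before the start of each gene to 50 bases after it. Capitals mark matches, on either strand, to an NF-kB motif and to the interferon-stimulated response element written as GAAANNGAAA. The build used for the deposited values is not known to be the same.
B2m (chr3:129549080-129549379, plus strand): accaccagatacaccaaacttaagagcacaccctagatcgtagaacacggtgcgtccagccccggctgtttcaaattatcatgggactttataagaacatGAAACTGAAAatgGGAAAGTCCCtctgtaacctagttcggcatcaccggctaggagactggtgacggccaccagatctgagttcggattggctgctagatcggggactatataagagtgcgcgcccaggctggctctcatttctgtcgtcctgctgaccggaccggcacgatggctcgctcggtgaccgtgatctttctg
Tapbp (chr20:4967828-4968127, minus strand): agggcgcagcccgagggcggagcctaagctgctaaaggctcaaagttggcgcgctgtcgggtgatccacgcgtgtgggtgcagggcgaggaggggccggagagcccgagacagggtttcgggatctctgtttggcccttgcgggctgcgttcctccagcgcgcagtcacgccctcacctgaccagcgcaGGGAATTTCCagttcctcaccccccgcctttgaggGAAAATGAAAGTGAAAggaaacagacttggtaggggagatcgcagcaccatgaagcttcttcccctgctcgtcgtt
Tap1 (chr20:4668494-4668793, minus strand): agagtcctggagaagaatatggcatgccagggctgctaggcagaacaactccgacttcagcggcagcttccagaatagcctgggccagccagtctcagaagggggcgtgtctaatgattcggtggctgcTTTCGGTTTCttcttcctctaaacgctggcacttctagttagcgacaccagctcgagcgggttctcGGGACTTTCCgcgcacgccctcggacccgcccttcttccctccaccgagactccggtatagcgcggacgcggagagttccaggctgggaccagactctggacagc

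All of these windows held both motifs. The window of Tap2, the other class I partner with a window, held an interferon element and no NF-kB match. In B2m the interferon element began at position -150 and the NF-kB match at -137, counted from the start, with -1 as the base before it. In Tapbp the NF-kB match began at -61 and overlapping interferon elements at -26 and -20. In Tap1 the interferon element began at -121 and the NF-kB match at -55. Over all 33469 windows of this length in the RefSeq table, 7.51% held the NF-kB motif and 3.92% the interferon element. A match describes the letters and shows no binding.

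Class I heavy chain genes are related to each other, which bears on how their reads can be assigned. How alike their transcripts are was not measured. The promoter windows compared below lie mostly before the gene start and do not show how reads were shared. Among the 8 heavy chain genes that averaged 1 FPKM or more, 7 had a promoter window and 5 of these held the NF-kB motif. The stretches from 8 bases before the match (capitals) to 30 bases after it are given for these genes.
RT1-A1 (chr20:4907075-4907123, plus strand): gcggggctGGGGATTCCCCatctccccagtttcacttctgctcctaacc
RT1-A2 (chr20:4872689-4872737, plus strand): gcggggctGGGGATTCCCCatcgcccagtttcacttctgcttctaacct
RT1-CE4 (chr20:3509310-3509358, minus strand): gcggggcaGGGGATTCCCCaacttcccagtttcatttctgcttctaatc
RT1-CE5 (chr20:3484218-3484265, minus strand): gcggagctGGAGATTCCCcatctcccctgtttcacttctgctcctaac
RT1-CE10 (chr20:3385133-3385181, minus strand): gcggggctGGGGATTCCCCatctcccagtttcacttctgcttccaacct

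RT1-A1, RT1-A2, RT1-CE4 and RT1-CE10 shared the same run of 11 matched bases. In local alignments of 228 to 299 bases of these windows, the 5 genes were 83.3% (RT1-CE4 with RT1-CE10) to 92.8% (RT1-A1 with RT1-A2) identical. RT1-M3-1 and RT1-S3, the other tested heavy chain genes with a window, held no NF-kB match and were less alike. RT1-M3-1 aligned with the 5 genes over 107 to 135 bases, at 67.2% to 71.3% identity. RT1-S3 aligned with them over 16 to 62 bases only. Of the 16 heavy chain genes that were not tested and had a window, 1 (RT1-M5) held the motif. The Y box CCAAT is the site of the factor NF-Y. It was held by all 7 tested heavy chain and all 10 class II genes with a window, against 37.5% of all windows. The X2 box TGACG was in 3 and 1 of them, against 21.2%. Only these exact letters were searched for, on either strand, so variants of the boxes would not be counted. In the same annotation the spans of RT1-CE4, RT1-CE5 and RT1-CE7 overlapped each other. How reads shared between class I copies were assigned is not given in the sources used here, so each single RT1 class I value is uncertain and sums are given beside them.

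Expression is given as FPKM, a fragment count corrected for the length of the transcript and the size of the library, as deposited by the authors. The files hold no counts, and sequencing depth is unknown. The 6 libraries summed to between 309497 and 348238 FPKM and listed 14378 to 14582 genes above 0. Markers of nucleus pulposus and cartilage cells were present in part and differed between the groups. Of 16 such markers 9 were tested, of which 6 rose under strain (Sox9, Krt8, Foxf1, Foxf2, Pax1 and Car3), 1 fell (Cdh2) and 2 were not called (Acan and Cd24), while 16.4% of all tested genes were called higher and 19% lower. Pax1 rose 2.98-fold and Car3 3.13-fold, and the keratin gene Krt8 averaged 8.34 ± 2.52 FPKM in strain and 4.19 ± 1.28 FPKM in control libraries (SD, n = 3 each), with its call lost without control replicate 1 (limma adjusted p = 0.0576). The summed level of the 16 markers was 105 to 109 FPKM under strain and 71.4 to 92.1 FPKM in controls, so these markers differed beside the member genes described below, and their part in the values of the members was not tested. Acan averaged 38.6 ± 3.18 FPKM in strain and 31.1 ± 10.6 FPKM in control libraries (SD, n = 3 each). The notochordal gene T and the keratin genes Krt18 and Krt19 averaged under 0.11 FPKM in both groups. Col2a1 averaged 0.898 ± 0.485 FPKM in strain and 0.0423 ± 0.0294 FPKM in control libraries (SD, n = 3 each).

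Stretched cells had less mRNA of 2 partners of the class I heavy chain, B2m and Tapbp, while the transporter gene Tap1, the peptidase gene Erap1 and most heavy chain genes were not called. Of the 45 members, 12 passed the filter on low values (a mean FPKM of 1 or more) and were tested, all of class I; 33 lay under it, and 13 of these were listed at 0 in all libraries. Among the 12, 3 fell under strain (B2m, Tapbp and RT1-CE4), 0 rose and 9 were not called (limma, adjusted p under 0.05). At an unadjusted p under 0.05 by limma 4 fell and 0 rose, and limma without its trend and robust options gave 3 and 0. Over all 10180 tested genes 19% were called lower, 16.4% higher and 35.4% either way, so the 25% of members that fell is near the background and is no result about the members as a group. The median log2 fold change, strain over control, was -0.05 over the 12 members and -0.01 over all tested genes.

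B2m, the shared light chain, was by far the most abundant member. It stood at 146, 124 and 144 FPKM in the strain libraries and at 221, 199 and 179 FPKM in the control libraries. Every strain library was below every control library. The mean was 138 ± 12.03 FPKM under strain and 199 ± 20.8 FPKM in controls (SD, n = 3 each), 1.45-fold lower under strain (log2 fold change -0.53 ± 0.11 SE on the log2(FPKM + 1) scale; limma adjusted p = 0.0068). Ranked by level within each library, B2m was between place 322 and 364 under strain and between 237 and 281 in controls. Since these are bulk samples, fewer cells that carry a transcript and less of it per cell cannot be told apart, here and below.

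Tapbp, which encodes tapasin, had the largest log2 fold change among the tested members on the log2(FPKM + 1) scale; with a pseudocount of 0.1 that of RT1-CE4 was larger, at -1.03, while that of Tapbp lay between -0.94 and -0.82 in all 13 alternatives. Its values were 16.7, 15.8 and 18.7 FPKM in strain libraries and 34.9, 32.4 and 29.2 FPKM in control libraries. The groups stood well apart, with the highest strain library under every control library by more than the whole range within either group. Tapbp averaged 17.1 ± 1.45 FPKM under strain and 32.2 ± 2.84 FPKM in controls (SD, n = 3 each), 1.88-fold lower under strain (log2 fold change -0.87 ± 0.10 SE; limma adjusted p = 0.000301). B2m and Tapbp were called in all 13 alternative analyses.

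Tap1, the transporter subunit encoded beside the class II genes, was at 5.29, 5.44 and 6.72 FPKM under strain and at 6.60, 5.87 and 6.05 FPKM in controls. The groups overlapped, and the log2 fold change of -0.08 had a 95% interval of -0.33 to 0.17 (limma adjusted p = 0.612). Erap1 was at 8.45, 8.20 and 7.40 FPKM under strain and at 7.83, 8.31 and 7.93 FPKM in controls. Its groups overlapped as well, with an interval of -0.21 to 0.20 around a log2 fold change of -0.00161 (limma adjusted p = 0.991). Tap2, the other subunit of the transporter, was under the filter at 0.315 ± 0.136 FPKM in strain and 0.341 ± 0.0969 FPKM in control libraries (SD, n = 3 each). On this scale, which is corrected for transcript length, Tap1 was thus far above its partner in every library.

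**Figure D1:**
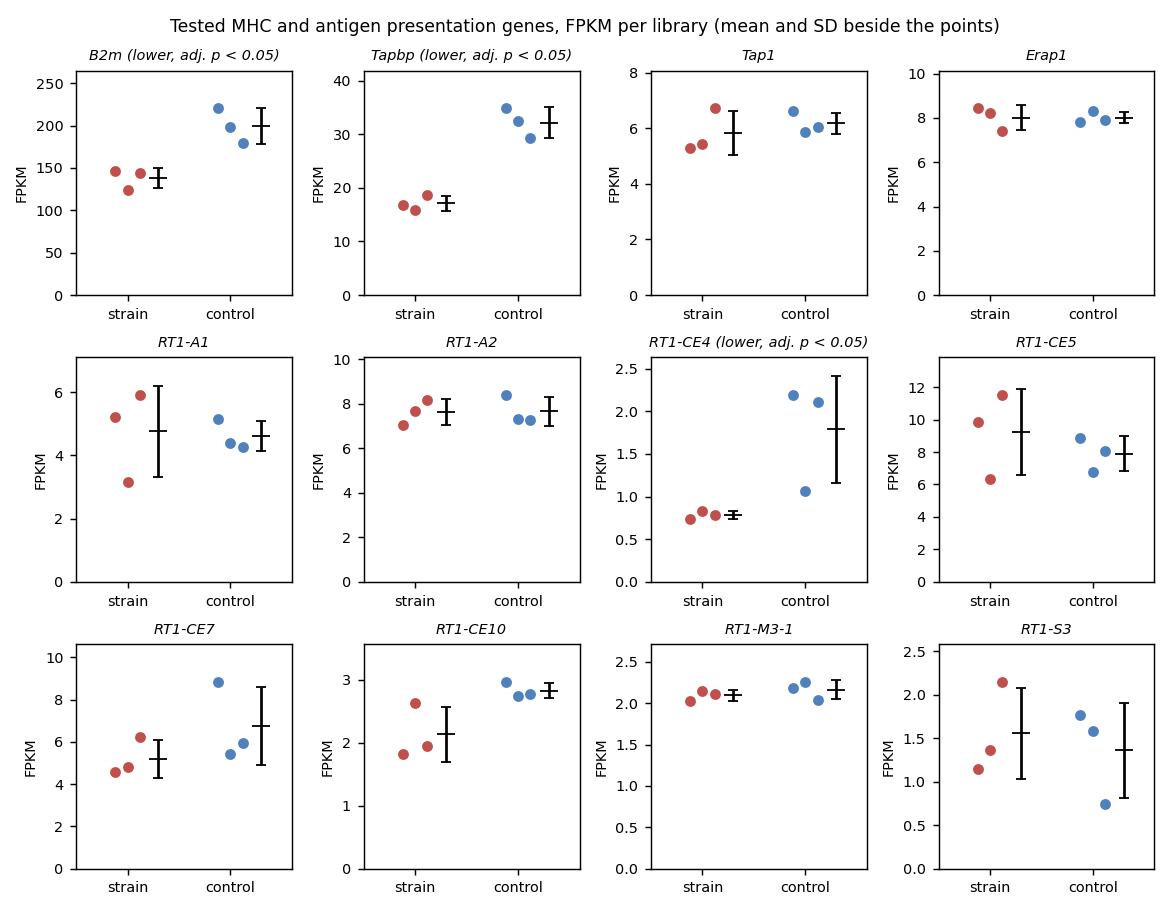
FPKM of the 12 tested members in each library (points; strain in red on the left, control in blue on the right), with the group mean and SD beside the points; each panel has its own axis from 0. The groups are apart for B2m, Tapbp, RT1-CE4 and RT1-CE10, of which RT1-CE10 was not called.

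The 27 heavy chain genes are also given as a sum, which depends less than the single values on how fragments were divided among copies. Fragments that were assigned to no copy would be missing from the sum as well, and their number is not known. Their summed level was 35.6, 32.1 and 43.1 FPKM in the strain libraries and 43.6, 36.0 and 37.8 FPKM in the control libraries. The groups overlapped, and the ratio of the means, strain over control, was 0.944. The RT1-A genes, which encode the classical class I molecules of the rat, made up 32.7% to 34.3% of the sum under strain and 30.5% to 32.5% in controls. The RT1-CE genes, of the RT1-C/E region, made up 48.9% to 51.6% under strain and 48.5% to 54.9% in controls. B2m stood at 3.33 to 4.09 FPKM per summed heavy chain FPKM under strain and at 4.74 to 5.51 in controls, ranges that do not overlap. The ratio contains the B2m values given above, which were already apart between the groups, and is no separate result. No test was run on sums or ratios of members.

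**Figure D2:**
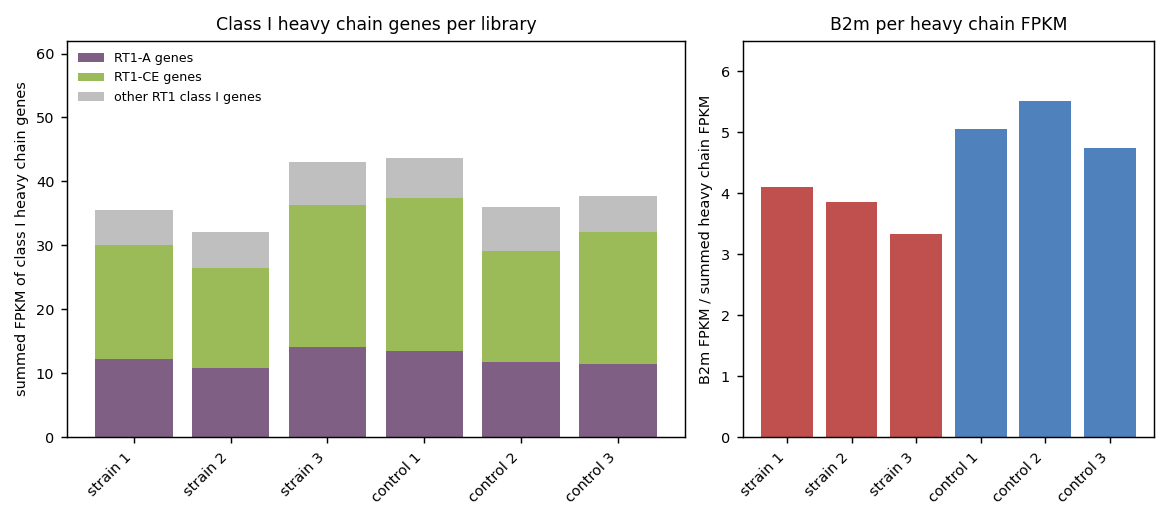
Left, summed FPKM of the 27 class I heavy chain genes in each library, divided into RT1-A, RT1-CE and other RT1 genes; right, B2m FPKM divided by that sum, strain libraries in red and control libraries in blue. The sums overlap between groups (32.1 to 43.1 under strain, 36.0 to 43.6 in controls), and the ratios, like B2m alone, do not.

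Neither RT1-A gene was called. RT1-A2 was at 7.03, 7.67 and 8.17 FPKM under strain and at 8.39, 7.31 and 7.26 FPKM in controls, with a 95% interval of -0.23 to 0.22 for the log2 fold change (limma adjusted p = 0.973). RT1-A1 was at 5.21, 3.15 and 5.91 FPKM under strain and at 5.15, 4.40 and 4.26 FPKM in controls. Strain replicate 2 was the lowest of all libraries for RT1-A1 and the other strain libraries were the highest, so its interval was wider, at -0.40 to 0.42 (limma adjusted p = 0.973).

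Of the RT1-CE genes, RT1-CE4 fell. It was at 0.737, 0.833 and 0.781 FPKM under strain and at 2.19, 1.07 and 2.11 FPKM in controls. The groups did not overlap, but control replicate 2 lay much nearer to the strain libraries than the other controls. The log2 fold change was -0.62 ± 0.17 SE (limma adjusted p = 0.019). The call was lost without strain replicate 3, control replicate 1 or control replicate 3, with adjusted p values up to 0.0755 over 12 alternatives.

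RT1-CE5 and RT1-CE7, whose annotated spans overlap that of RT1-CE4, were the most abundant of the region. RT1-CE5 was at 9.87, 6.32 and 11.5 FPKM under strain and at 8.88, 6.74 and 8.07 FPKM in controls, and RT1-CE7 at 4.57, 4.81 and 6.22 FPKM under strain and at 8.84, 5.42 and 5.93 FPKM in controls. Both overlapped between groups and neither was called (limma adjusted p = 0.504 and 0.201). The 3 overlapping genes summed to 15.2, 11.97 and 18.5 FPKM under strain and to 19.9, 13.2 and 16.1 FPKM in controls, which overlap. Within them, RT1-CE4 was 0.0747, 0.132 and 0.0678 of the RT1-CE5 level under strain and 0.247, 0.158 and 0.261 of it in controls. Whether the fall of RT1-CE4 is a change of the gene or of how fragments were divided among these copies cannot be told apart from these values.

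RT1-CE10 had separate groups without a call: 1.82, 2.63 and 1.96 FPKM under strain and 2.97, 2.75 and 2.77 FPKM in controls (log2 fold change -0.30 ± 0.12 SE; limma adjusted p = 0.0806). It was called without strain replicate 2, the highest strain library (adjusted p = 0.0326; up to 0.232 over 12 alternatives). Separate groups alone are common here, since 51.9% of all tested genes had them, against 4 of the 12 members.

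RT1-M3-1, the counterpart of the mouse gene H2-M3, whose product presents peptides with a formylated methionine in the mouse, varied least among libraries of the tested heavy chain genes. It was at 2.02, 2.15 and 2.11 FPKM under strain and at 2.19, 2.26 and 2.03 FPKM in controls, with an interval of -0.24 to 0.18 for the log2 fold change (limma adjusted p = 0.829). RT1-S3, which RefSeq lists with the synonym H2-T23, the mouse gene of the natural killer cell ligand Qa-1, varied far more within groups. It was at 1.15, 1.37 and 2.15 FPKM under strain and at 1.76, 1.58 and 0.739 FPKM in controls, with an interval of -0.33 to 0.58 (limma adjusted p = 0.667). A p that misses the threshold does not show that these genes were unchanged, and the intervals give the sizes of change that the libraries still allow.

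**Figure D3:**
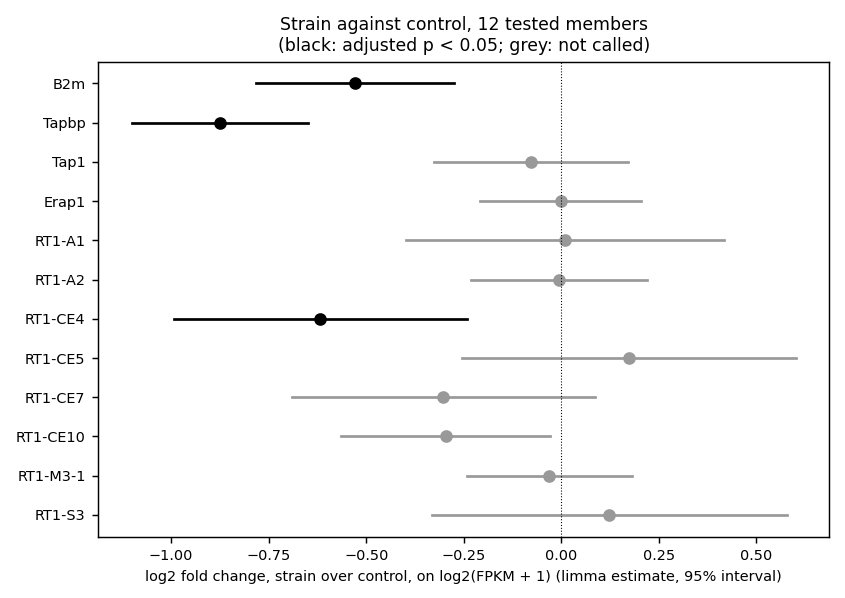
Log2 fold change, strain over control, on the log2(FPKM + 1) scale for the 12 tested members, with limma's 95% interval; black marks an adjusted p under 0.05. Tapbp (-0.87), RT1-CE4 (-0.62) and B2m (-0.53) lie below 0; the interval of RT1-CE10 also ends below 0 but is not adjusted over the 10180 genes tested.

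Of the class I members under the filter, 12 had a value above 0 in some library and 9 did not: RT1-M1-5, RT1-M10-1, RT1-M2, RT1-M4, RT1-M5, RT1-M6-2, RT1-O1, RT1-S2 and RT1-T18. The most abundant were RT1-N3 (0.989 ± 0.169 FPKM under strain and 0.717 ± 0.257 FPKM in controls), RT1-T24-4 (0.664 ± 0.134 FPKM under strain and 0.990 ± 0.204 FPKM in controls) and RT1-CE2 (0.701 ± 0.358 FPKM under strain and 0.809 ± 0.321 FPKM in controls; SD, n = 3 each). A fit with no filter, over 16152 genes of which 12.6% were called lower and 10.7% higher, called none of these 3.

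That fit called 2 further class I members lower, which were picked out after their values were seen. Nlrc5, the coactivator of class I transcription, was at 0, 0.0294 and 0.0145 FPKM under strain and at 0.351, 0.185 and 0.206 FPKM in controls. The highest strain library was far under the lowest control library, although all values are low (log2 fold change -0.30 on the log2(FPKM + 1) scale; limma adjusted p = 0.0092). RT1-T24-1, which RefSeq pairs with the mouse gene H2-T24, was at 0.340, 0.575 and 0.423 FPKM under strain and at 0.783, 0.822 and 0.848 FPKM in controls (log2 fold change -0.33; limma adjusted p = 0.0289). Its groups did not overlap either.

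Class II transcripts were at the floor of the measurement. None of the 12 class II members reached the filter, and 4 (RT1-DOa, RT1-DOb, RT1-Db2 and RT1-Ha) were listed at 0 throughout. The 10 chain genes together summed to 0.276, 0.343 and 0.299 FPKM under strain and to 0.327, 0.245 and 0.389 FPKM in controls, against summed class I heavy chain levels of 32.1 to 43.6 FPKM. The sums overlapped between groups. Cd74, the invariant chain gene and among the most abundant transcripts of antigen-presenting cells, was at 0.353, 0.133 and 0.229 FPKM under strain and at 0.156, 0.374 and 0.169 FPKM in controls. These overlap, and the fit with no filter gave an adjusted p of 0.971 by limma.

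Ciita, the coactivator that class II transcription depends on, was at 0.0689, 0.139 and 0.108 FPKM under strain and at 0.348, 0.158 and 0.277 FPKM in controls. All strain values were under all control values, without a call in the fit with no filter (limma adjusted p = 0.0655). RT1-Db1, a class II beta chain gene, was listed at 0 in all strain libraries and at 0.0854, 0.0428 and 0.0434 FPKM in controls. RT1-DMa, the alpha chain of the peptide-exchange molecule DM, ran the other way, at 0.195, 0.265 and 0.266 FPKM under strain and at 0, 0 and 0.136 FPKM in controls.

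The fit with no filter called RT1-Db1 lower and RT1-DMa higher (limma adjusted p = 0.0418 and 0.0223). Its beta chain partner RT1-DMb was above 0 in a single library, strain replicate 1, at 0.0485 FPKM. RT1-Bb averaged 0.0336 ± 0.000555 FPKM under strain and 0.134 ± 0.0918 FPKM in controls, RT1-Ba was listed at 0 in all strain libraries and at up to 0.0823 FPKM in controls, and RT1-Da was above 0 in strain replicate 2 and control replicate 2 alone. At such levels a library's value can rest on few fragments, and the number of fragments is not known.

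**Figure D4:**
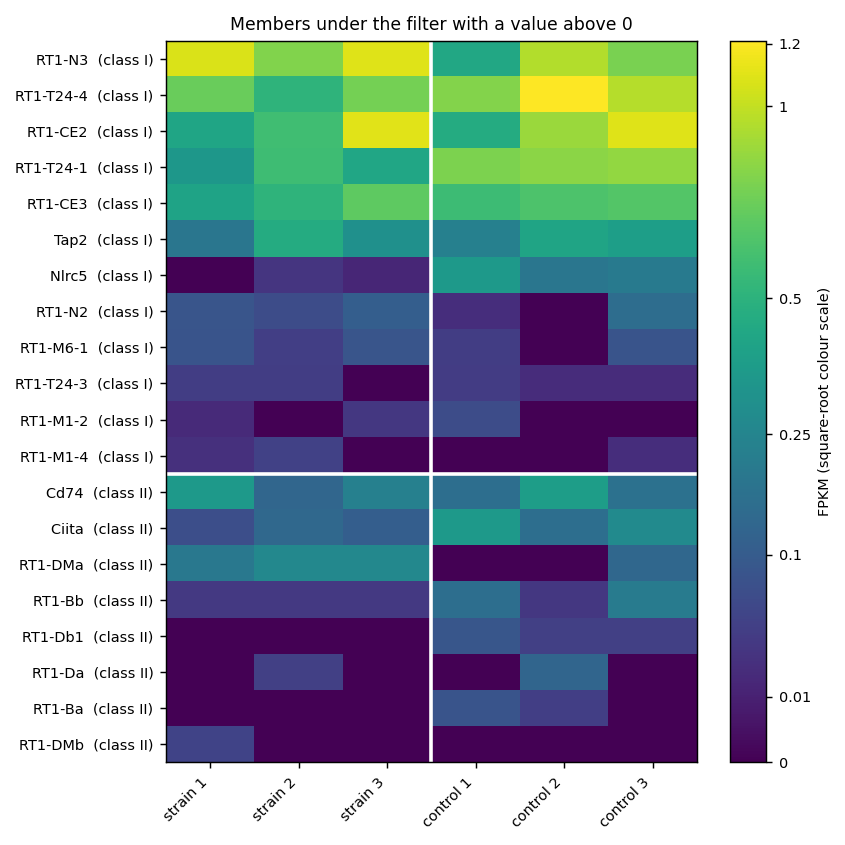
FPKM of the 20 members under the filter that were above 0 in at least 1 library (rows; class I above the white line, class II below it) in the 3 strain and 3 control libraries (columns), on a square-root colour scale. RT1-T24-4, RT1-T24-1, Nlrc5, Ciita and RT1-Db1 are lower in every strain library than in every control library, RT1-DMa is higher, and no class II member reaches 0.4 FPKM. Among all genes that passed the filter 51.9% had separate groups, and the share under the filter was not counted. The separation is therefore no result about these members as a group.

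Genes that make the peptides of class I showed no call. The inducible subunits Psmb8, Psmb9 and Psmb10, which replace the standard catalytic subunits in the immunoproteasome, and the activator genes Psme1 and Psme2 had 0 of 5 called (limma; also 0 at an unadjusted p under 0.05 and 0 without the trend and robust options). Without strain replicate 3 Psme1 was called lower (limma adjusted p = 0.0138). The standard subunits Psmb5, Psmb6 and Psmb7 had 0 of 3 called by all of these. Psme1, the most abundant of the first list, averaged 27.5 ± 3.96 FPKM under strain and 31.0 ± 0.549 FPKM in controls, and Psme2 13.98 ± 0.977 FPKM under strain and 15.4 ± 1.21 FPKM in controls (SD, n = 3 each). Psmb8 was near 1 FPKM in both groups (0.978 ± 0.448 under strain and 1.02 ± 0.412 in controls), far below Psmb5 at 67.2 ± 12.2 FPKM under strain and 59.1 ± 2.11 FPKM in controls (SD, n = 3 each).

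Among 6 genes of chaperones and peptidases of the endoplasmic reticulum, 2 fell and 1 rose, against 19% lower and 16.4% higher over all tested genes. This and the lists below were chosen with earlier results known, and no list was tested against other genes. Hspa5, which encodes the chaperone BiP, fell to 427 ± 26.8 FPKM under strain, against 677 ± 87.2 FPKM in controls (SD, n = 3 each; limma adjusted p = 0.00386). Canx, for the lectin chaperone calnexin that binds new heavy chains, fell to 161 ± 14.1 FPKM under strain, against 204 ± 8.34 FPKM in controls (limma adjusted p = 0.0253), and lost its call in 5 of 13 alternatives: quantile normalization, the replicate block, and without strain replicate 2, control replicate 1 or control replicate 3. Calr and Pdia3, whose products calreticulin and ERp57 sit in the loading complex with tapasin, were at 547 ± 60.1 and 415 ± 17.3 FPKM under strain and at 663 ± 39.9 and 488 ± 22.9 FPKM in controls (SD, n = 3 each), without a call (limma adjusted p = 0.0912 and 0.0927); both were called lower with quantile normalization and without strain replicate 3.

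Tapbpl, which encodes the tapasin relative TAPBPR, ran opposite to Tapbp. It was at 9.48, 10.1 and 12.1 FPKM under strain and at 7.14, 8.27 and 7.15 FPKM in controls. The groups did not overlap, and it rose 1.40-fold (log2 fold change 0.43 ± 0.11 SE; limma adjusted p = 0.0164). The call was lost without control replicate 1 or control replicate 3 (adjusted p up to 0.0665 over 13 alternatives).

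Of 11 tested regulators of MHC transcription, 5 fell and 2 rose, where 19% of all tested genes were called lower and 16.4% higher. Irf1, an interferon-induced activator of class I genes, was at 2.52, 2.35 and 2.76 FPKM under strain and at 9.85, 7.12 and 5.58 FPKM in controls, with no overlap (log2 fold change -1.24 ± 0.17 SE; limma adjusted p = 0.000747). The NF-kB subunit genes Nfkb1 and Rela fell to 23.6 ± 6.03 and 23.8 ± 1.84 FPKM under strain, against 61.3 ± 5.54 and 41.1 ± 2.69 FPKM in controls (SD, n = 3 each; limma adjusted p = 0.000337 and 0.000426). Strain replicate 1 had the highest Nfkb1 of the strain libraries, at 30.4 FPKM. The other interferon regulatory factors of the list ran both ways. Irf2 averaged 4.26 FPKM under strain and 5.86 FPKM in controls (limma adjusted p = 0.0131), with its call lost without control replicate 1. Irf8 rose, with means of 1.47 FPKM under strain and 0.873 FPKM in controls (limma adjusted p = 0.0126).

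The subunits of NF-Y, which binds the Y box, did not move together: Nfyb rose 2.10-fold, to 10.1 ± 1.08 FPKM against 4.82 ± 0.810 FPKM in controls, Nfya fell to 4.71 ± 0.155 FPKM against 6.38 ± 0.125 FPKM in controls, and Nfyc was not called (SD, n = 3 each; limma adjusted p = 0.000685, 0.011 and 0.258). Of the RFX complex that binds the X box, Rfx5 and Rfxank were not called and Rfxap was under the filter.

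Interferon gamma and beta themselves (Ifng and Ifnb1) were listed at 0 in all libraries. Among 7 tested genes of interferon receptors and their kinases, 2 fell and 0 rose (limma; also 0 rose at an unadjusted p under 0.05 and without the trend and robust options). The 2 are 28.6% of the list, against 19% called lower over all tested genes. Ifngr1, the ligand-binding chain of the interferon gamma receptor, fell to 26.3 ± 2.27 FPKM under strain, against 36.2 ± 3.17 FPKM in controls, and the kinase gene Jak1 fell to 19.9 ± 1.73 FPKM, against 29.9 ± 1.14 FPKM in controls (SD, n = 3 each; limma adjusted p = 0.00947 and 0.00186). Jak2 and Ifnar1 were not called.

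Of the class I-like genes that lie outside RT1, 4 were tested, of which 1 fell and 1 rose, against 19% lower and 16.4% higher over all tested genes. Procr, the endothelial protein C receptor, has a class I-like fold and presents no peptide. It was at 21.5, 17.9 and 21.3 FPKM under strain and at 88.7, 77.9 and 100.2 FPKM in controls, far apart (log2 fold change -2.08 ± 0.12 SE; limma adjusted p = 1.67e-05). Hfe, a regulator of iron uptake that pairs with beta-2-microglobulin, rose 2.09-fold to 2.38 ± 0.510 FPKM, against 1.14 ± 0.254 FPKM in controls (SD, n = 3 each; limma adjusted p = 0.00772). Fcgrt, the heavy chain of the neonatal Fc receptor and another partner of beta-2-microglobulin, was not called, at 58.2 ± 9.002 FPKM under strain and 57.7 ± 2.84 FPKM in controls (SD, n = 3 each). Cd1d1, which presents lipids, was not called either.

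Of 5 tested ligands that tune T cell activation beside the MHC, 3 fell and 1 rose, against 19% lower and 16.4% higher over all tested genes. Cd274, which encodes the inhibitory ligand PD-L1, was at 1.28, 0.867 and 0.655 FPKM under strain and at 3.12, 2.96 and 2.78 FPKM in controls, without overlap (log2 fold change -1.04 ± 0.13 SE; limma adjusted p = 0.000501). Icoslg and Cd40 fell as well (log2 fold changes of -1.26 and -0.82; limma adjusted p = 0.000297 and 0.00986). Cd276 rose at the threshold (limma adjusted p = 0.04996) and kept its call in 4 of 13 alternatives. Cd80 was not called, at 1.09 ± 0.102 FPKM under strain and 1.34 ± 0.313 FPKM in controls (SD, n = 3 each), and Cd86 was listed at 0 throughout.

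In the endosomal machinery that feeds class II, 1 of 5 tested genes rose and 0 fell, against 16.4% higher and 19% lower over all tested genes (limma; also 0 fell at an unadjusted p under 0.05 and without the trend and robust options). Ifi30, a thiol reductase of lysosomes, rose to 14.8 ± 1.25 FPKM under strain, against 10.97 ± 1.28 FPKM in controls (SD, n = 3 each; limma adjusted p = 0.0187). Its call was lost without strain replicate 2, control replicate 1 or control replicate 2 (adjusted p up to 0.0712 over 13 alternatives). Ctsb and Ctsl, general lysosomal proteases, were not called. Ctss, the protease that trims the invariant chain in antigen-presenting cells, was under the filter, with a highest value of 0.0475 FPKM in any library.

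**Figure D5:**
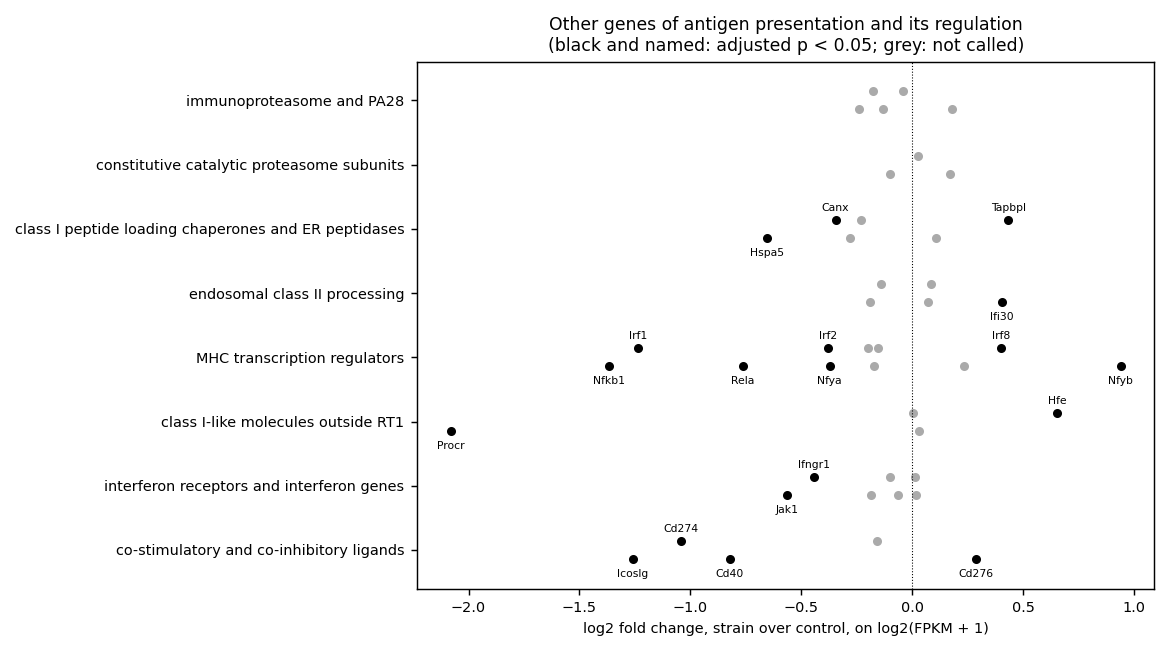
Log2 fold change, strain over control, on the log2(FPKM + 1) scale, for the tested genes of 8 lists around antigen presentation (rows); black, named points had an adjusted p under 0.05. The proteasome lists hold no called gene, whereas the regulators span from Nfkb1 (-1.37) to Nfyb (0.94) and Procr lies lowest (-2.08).

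Some markers of professional antigen-presenting cells also differed between the groups. Of 21 such markers 6 were tested, of which 4 fell (Itgax, Cd83, Adgre1 and Cd68), 1 rose (Lyz2) and 1 was not called (Cd14), and 6 were listed at 0 throughout, among them the B cell genes Ms4a1, Cd79a and Cd79b. Over all tested genes 19% were called lower and 16.4% higher. Adgre1 lost its call in 6 of 12 alternatives (limma adjusted p up to 0.095), namely in the fit with no filter and without any single library other than control replicate 2. Their summed level was 21.3 to 24.7 FPKM under strain and 29.7 to 46.7 FPKM in controls. Cd83, an activation marker of dendritic cells, took much of the difference, at 0.599, 0.377 and 0.133 FPKM under strain and 20.8, 10.6 and 15.7 FPKM in controls. The listed markers stood at unlike levels. Cd14 averaged 15.8 FPKM under strain and 14.5 FPKM in controls, Lyz2 3.30 and 0.249 FPKM, and Adgre1 1.31 and 3.71 FPKM. Itgax averaged 0.620 FPKM under strain and 1.48 FPKM in controls, and Cd68 0.633 and 1.53 FPKM. Others were near 0. The pan-leukocyte gene Ptprc was at most 0.0486 FPKM. The myeloid factor gene Spi1 averaged 0.0402 FPKM under strain and 0.0330 FPKM in controls, and Csf1r 0.0601 and 0.0759 FPKM. Of 12 T and NK cell markers, 0 reached the filter, and their summed level was 0.263 to 0.818 FPKM under strain and 0.0908 to 0.195 FPKM in controls. Of 8 endothelial markers 0 reached it, with sums of 0.919 to 1.08 FPKM under strain and 1.36 to 1.91 FPKM in controls. These markers ran both ways. The fit with no filter called 1 lower, Flt1, at a mean of 0.484 FPKM under strain and 1.43 FPKM in controls. It called 2 higher, Pecam1 (0.269 FPKM under strain, 0.0692 FPKM in controls) and Erg (0.0799 and 0.0223 FPKM). Over all genes of that fit 12.6% were called lower and 10.7% higher. The part of any such cells in the values of the members was not tested.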

How the data were processed

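The authors deposited 1 value per gene symbol and library, taken as FPKM from the values and from Cufflinks and Cuffdiff 2.2.1 in the submitters' processing notes, which also name cutadapt 1.9.3, HISAT2 2.0.4, DESeq and the human build hg19. The symbols are rat ones, and no coordinates of the authors were used. Annotation, library scaling, strand and the treatment of reads shared between copies are not given in the sources used here. Left out were 27 rows whose symbol had become a date (0.191% to 0.232% of the summed FPKM) and 1 row broken in a control file; the class II ubiquitin ligases March1 and March8 were not matched for this reason. Depth is unknown, so no counting interval was computed.

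Genes whose mean over the 6 libraries was 1 FPKM or more (10180 of 22573) were fitted as log2(FPKM + 1), strain against control, with limma 3.58.1 in R 4.3.3 (trend and robust moderation). Tests were two-sided, p-values were adjusted over all tested genes by Benjamini-Hochberg, and an adjusted p under 0.05 was a call. The log2(FPKM + 1) scale understates changes of low genes. Folds without log are ratios of group means and are given where both reach 1 FPKM. The procedure was tested on simulated data in which only genes well above the filter were shifted, all by the same amount. That test does not cover low genes or smaller shifts.

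The members and the lists of other genes were chosen with earlier results of these data known, and some genes of the lists are not reported here. Named were all tested members, the class II members, the 3 most abundant members under the filter, and of each list up to 4 called genes with the smallest p and up to 2 uncalled ones with the highest mean. Outside that rule, and chosen after values were seen, are Nlrc5, RT1-T24-1, Tap2, the further genes given as called, uncalled or listed at 0, and the cell type markers. Alternatives were other pseudocounts, filters, scalings and moderation, the replicate number as a block, and leaving out each library.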

Additional observations from a re-analysis of the deposited data

How the results depend on the processing

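Among members, 3 fell and 0 rose in the analysis as reported, and the same counts came from a pseudocount of 0.1, quantile normalization, median-ratio size factors, limma without trend and robust options and the replicate block. With each library left out, 2 to 4 fell and 0 rose, with a filter at 5 FPKM 2 of 7 fell, and with no filter 6 of 32 fell and 1 rose, since further low genes enter. Over all genes 1672 rose and 1936 fell as reported; with a filter at 5 FPKM, which tests 6572 genes, 1071 rose, with quantile normalization 2138 rose and 1711 fell, which turns the balance of directions over, and without single libraries 1060 to 1510 rose and 1303 to 2062 fell, the fewest of both without control replicate 1. Of the genes of the other lists 13 rose and 18 fell as reported, 8 rose with a filter at 5 FPKM, and 9 to 13 rose and 13 to 23 fell without single libraries. The ratio of summed class I heavy chain FPKM, strain over control, was 0.944 as reported and 0.865 to 1.01 without single libraries, on either side of 1; the cause was not tested. Of the genes called as reported and named here, none changed direction under the alternatives in which it was tested; the low members called with no filter were tested in that fit alone. Same-numbered libraries of the 2 groups had deviations correlated at 0.0325, 0.108 and -0.116, so the numbers were not taken as pairs; with the replicate block 1441 genes rose and 1675 fell over all genes, and 12 and 17 of the other lists. Unknown depth limits every value under the filter, the class II genes first.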
